A study of Homo sapiens with 4 samples.

Results

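The 41 genes described here encode the MITF/TFE transcription factors, the machinery that builds autophagosomes, the receptors that select autophagic cargo, and enzymes, membrane proteins and proton pump subunits of the lysosome. They were chosen by gene symbol from a named list, and all 41 were found among the 58735 genes measured. Their transcripts were compared between H1299 cells edited at TTC28 by CRISPR/Cas9 (TTC28-KO, 2 libraries) and wild-type H1299 cells (WT, 2 libraries). H1299 is an established human non-small cell lung cancer line. Both genotypes were labelled untreated and were grown alike in RPMI1640 with serum. The labels do not give whether the TTC28-KO cells were a clone or a pool, nor whether the 2 libraries of a genotype came from separate cultures, so the p-values measure the spread between these libraries only. In bulk RNA, fewer cells that express a gene and less RNA of it per cell cannot be told apart.

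Autophagy encloses cytoplasm or organelles in a membrane sac, the phagophore, which closes into an autophagosome and fuses with the lysosome. Ubiquitin-like proteins of the ATG8 family are conjugated to lipid on that membrane and are bound by cargo receptors such as SQSTM1 (p62). Many of the genes for autophagy and for lysosomal proteins carry a short E-box sequence in their promoters, to which TFEB, TFE3 and MITF bind. These factors are held in the cytoplasm by the kinase complex mTORC1 when nutrients are plentiful, through the Rag GTPases and FLCN.

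The libraries held 28885443 and 25120500 counts in TTC28-KO cells, and 25808423 and 27043491 counts in WT cells. TTC28 itself had 2.96 and 2.99 FPKM (fragments per kilobase, scaled by the authors to the size of each library, a level per length) in TTC28-KO libraries, against 4.88 and 5.44 FPKM in WT libraries. Its transcript was thus lower but present (log2 fold change -0.79, SE 0.0764, adjusted p = 2.78e-06, edgeR's quasi-likelihood test, Benjamini-Hochberg adjusted), and whole-gene counts cannot show the edited site. Mitochondrially encoded genes took 8.61% and 10.2% of the counts in TTC28-KO libraries, against 6.07% and 5.87% in WT libraries. Epithelial keratins KRT8 and KRT18 and the mesenchymal genes VIM and CDH2 were expressed in every library, EPCAM had 0.0303 to 0.214 FPKM, and the leukocyte and endothelial markers PTPRC, CD3E, CD68, PECAM1 and VWF were each under 0.1 FPKM.

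A gene was tested where it reached 1 FPKM in at least 2 libraries, which left 13079 genes and 37 of the 41 genes of the list. Of the 37, 11 were called higher and 10 lower in TTC28-KO cells at a Benjamini-Hochberg adjusted p under 0.05 (edgeR's quasi-likelihood test), and 16 were not called. Over all tested genes 25.1% were called higher and 25.2% lower. The 21 called genes of the list are 56.8% of those tested, beside 50.3% of all tested genes, so that a call as such was common in this comparison. TTC28-KO and WT libraries did not overlap in FPKM for 27 of the 37, beside 75.5% of all tested genes. The median log2 fold change was 0.02 over the 37 and 0.00 over all tested genes. The 41 genes together took 0.364% and 0.358% of the counts in TTC28-KO libraries, against 0.405% and 0.413% in WT libraries. This share weighs each gene by its counts and gives no direction for the list. The genes with the most counts in WT libraries were SQSTM1 (29046 and 31961) and MAP1LC3B (10476 and 10776). Both were lower in TTC28-KO libraries, at 24412 and 19554 counts for SQSTM1 and 5520 and 5170 for MAP1LC3B.

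Most changes were small. Only MITF and ATG12 among the called genes that rose, and MAP1LC3B and ATG3 among those that fell, reached 0.5 in size on the log2 scale, and the other 17 called genes lay below it. Scaling mattered for the small ones. On a TPM scale, where each library has the same sum of counts per length, the median of all tested genes moved to -0.17, the share of higher calls among all called genes was 26.6%, beside 49.9% on the scale used here, and 5 genes of the list were called higher and 14 lower. With total counts that share was 40.0%, with 9 genes of the list higher and 10 lower. Without WT replicate 1, fewer genes of the list were called in either direction, and so were fewer of all tested genes. The calls of 10 genes were kept under all 15 alternative settings tried: MITF, ATG12, CTSB and CTSL, which rose, and BECN1, ATG3, ATG5, ATG7, MAP1LC3B and SQSTM1, which fell. The authors' deposited table gave an adjusted p under 0.05 for 19 of the 40 genes of the list that had one there. Of the 19, 18 were also called here with the same sign. Of all its genes with an adjusted p, 20.6% were under 0.05. That share is over 27926 genes, many more than the 13079 that passed the filter here, so it is no like background for the list. In the DESeq2 setting, 5537 of the 13079 tested genes were called, with 10 genes of the list higher and 8 lower.

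**Figure D1:**
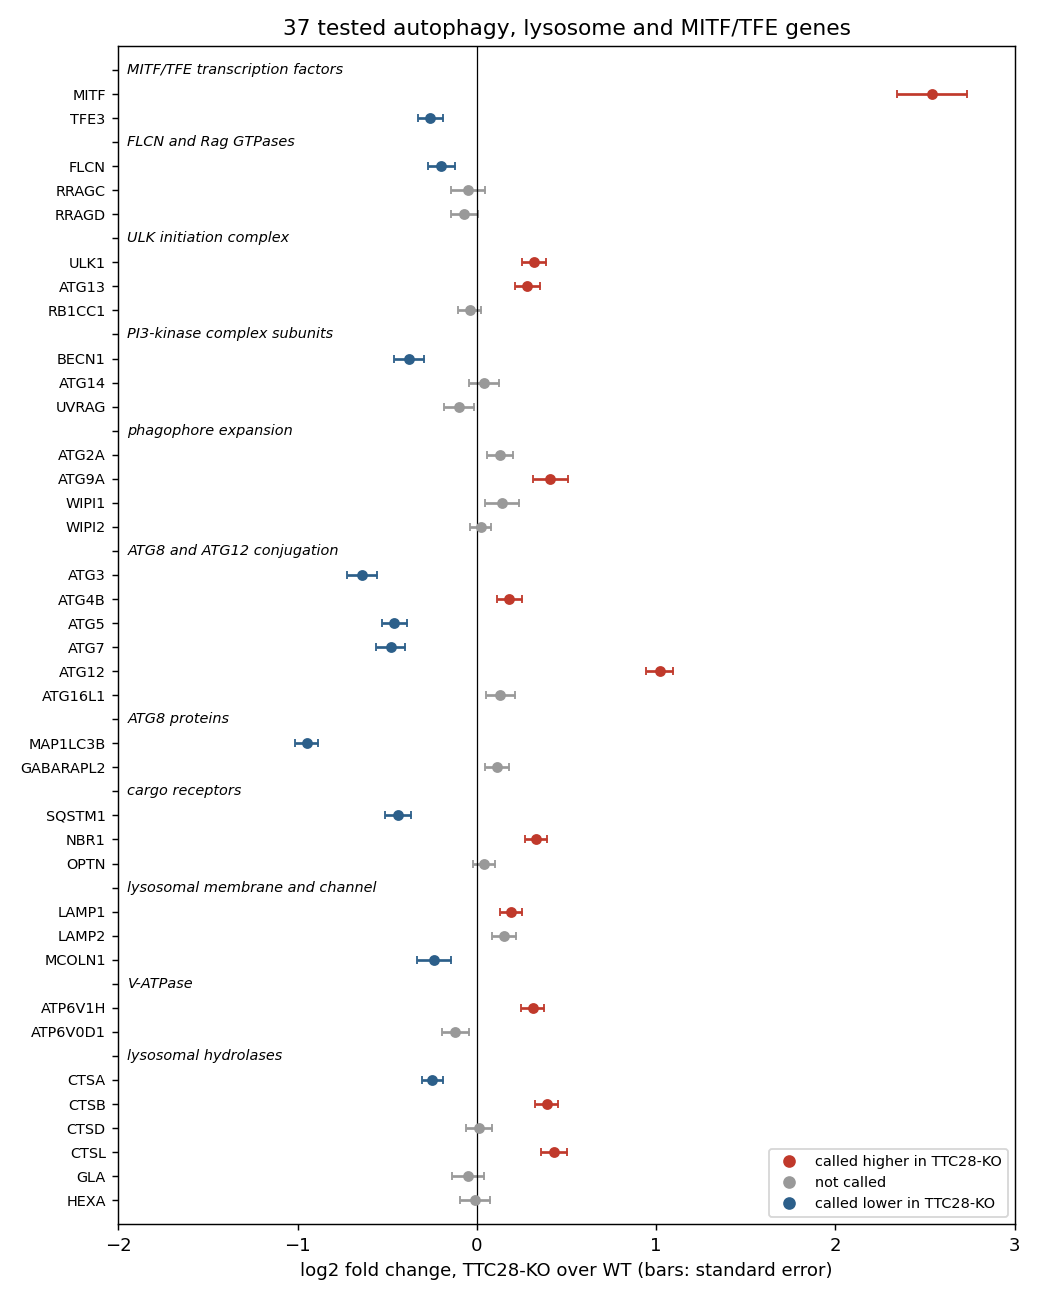
Log2 fold change of TTC28-KO over WT for the 37 tested genes, grouped by role, with bars for the standard error from edgeR's fit; red marks genes called higher, blue genes called lower and grey genes not called. MITF stands at 2.54 and ATG12 at 1.02, MAP1LC3B at -0.95, and most of the others lie within 0.5 of 0.

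MITF, the factor best known from melanocytes and osteoclasts, had the largest fold change among the tested genes of the list, at a low level. It had 1.10 and 1.05 FPKM in TTC28-KO libraries (220 and 184 counts), against 0.202 and 0.169 FPKM in WT libraries (38 and 33 counts). Both TTC28-KO libraries lay above both WT libraries, and MITF passed the filter only through the TTC28-KO libraries, so that it had to differ to be tested. Its log2 fold change was 2.54 (SE 0.194, adjusted p = 3.87e-07, edgeR's quasi-likelihood test, Benjamini-Hochberg adjusted). Summed counts, scaled to library size, gave a ratio of 5.83 (95% exact interval 4.52 to 7.61, counting error only). Without MITF the list had 10 genes called higher and 10 lower of 36.

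TFE3 was the predominant family member in H1299 cells. It had 21.8 and 19.4 FPKM in TTC28-KO libraries, against 25.1 and 24.4 FPKM in WT libraries, and was lower in both TTC28-KO libraries (log2 fold change -0.26, SE 0.0685, adjusted p = 0.00665, edgeR's quasi-likelihood test, Benjamini-Hochberg adjusted). Without WT replicate 1 the TFE3 call was lost, at -0.24 (adjusted p = 0.0632 in edgeR). TFE3 made up 91.9% and 92.8% of the summed FPKM of the MITF/TFE factors in TTC28-KO libraries and 97.3% and 97.0% in WT libraries. MITF made up 4.63% and 5.02% of that sum in TTC28-KO libraries and 0.784% and 0.672% in WT libraries, so the rise of MITF left TFE3 as nearly all of the family's transcript. The sum itself was 23.7 and 20.9 FPKM in TTC28-KO libraries, against 25.8 and 25.1 FPKM in WT libraries.

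TFEB, the factor most studied as a regulator of lysosomal genes, had 0.832 and 0.464 FPKM in TTC28-KO libraries and 0.487 and 0.585 FPKM in WT libraries. It was below the filter, the libraries of the genotypes overlapped, and the ratio of summed counts was 1.23 (95% exact interval 0.995 to 1.53, counting error only), which did not show a difference. The 2 TTC28-KO libraries of TFEB differed from each other (131 and 64 counts), a spread that this interval leaves out. TFEC had a single count, in WT replicate 1. Per length, the order of the factors was TFE3, MITF, TFEB and TFEC by mean in TTC28-KO cells and TFE3, TFEB, MITF and TFEC in WT cells.

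Upstream of these factors, FLCN, the activator of GTP hydrolysis by RagC and RagD, had 4.98 and 4.51 FPKM in TTC28-KO libraries and 5.37 and 5.52 FPKM in WT libraries. Its call as lower was marginal (log2 fold change -0.20, SE 0.0749, adjusted p = 0.0431 in edgeR) and was lost in 6 of the 15 alternative settings, among them without TTC28-KO replicate 2 (-0.13), without WT replicate 1 (-0.21) and without WT replicate 2 (-0.18). RRAGC (-0.05 ± 0.0943, log2 fold change ± SE) and RRAGD (-0.07 ± 0.0761), which encode those GTPases, were not called, and their libraries overlapped. A gene on the same strand shares 22.9% of the exonic bases of RRAGC and held 0 counts in every library. Another shares 11.9% of those of FLCN and held 2 to 7 counts per library. Reads that fit both genes could have been split or dropped, so the levels of RRAGC and FLCN are uncertain.

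The sequence that MITF/TFE factors bind in lysosomal promoters, the CLEAR element, was looked for as its central letters TCACGTGA, which read the same on both strands and contain the E-box CACGTG. Promoter sequence of RefSeq (GRCh38.p14, 250 bases before to 50 after each start) was at hand for 34 of the 41 genes, as 45 promoters. The letters TCACGTGA occurred in 5 of the 45 (11.1%), against 344 of all 35116 promoters of the same length (0.980%). The list was chosen for autophagy and lysosome genes, whose promoters are known for this element. A higher share than in all promoters was therefore likely beforehand and is not a result of these data. CACGTG occurred in 17.8% of the list's promoters and 7.26% of all promoters, and TCATGTGA, a sequence that MITF also binds, searched on both strands, in 0 of 45 and in 1.00% of all. The 5 promoters with TCACGTGA are shown from 70 bases before to 20 after the start, with that sequence in capitals, so that they can be read beside the values of their genes.
ATG3, chr3:112561943-112562032, minus strand: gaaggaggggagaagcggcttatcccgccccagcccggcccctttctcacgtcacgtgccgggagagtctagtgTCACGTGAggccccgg
ATP6V0D1, chr16:67481138-67481227, minus strand: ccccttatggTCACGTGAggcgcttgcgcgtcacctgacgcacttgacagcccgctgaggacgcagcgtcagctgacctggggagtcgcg
CTSA, chr20:45891265-45891354, plus strand: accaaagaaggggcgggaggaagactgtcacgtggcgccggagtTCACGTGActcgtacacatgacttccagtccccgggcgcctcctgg
LAMP1, chr13:113297169-113297258, plus strand: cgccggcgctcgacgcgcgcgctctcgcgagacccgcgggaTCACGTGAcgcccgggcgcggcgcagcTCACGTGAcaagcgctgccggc
MCOLN1, chr19:7522554-7522643, plus strand: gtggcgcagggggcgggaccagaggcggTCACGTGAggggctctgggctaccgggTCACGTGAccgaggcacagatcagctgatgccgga

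LAMP1 and MCOLN1 each held the sequence at 2 places, and the others at 1. Of these 5 genes, LAMP1 was called higher (0.19), ATG3 (-0.64), CTSA (-0.25) and MCOLN1 (-0.24) were called lower, and ATP6V0D1 (-0.12) was not called, all as log2 fold changes of TTC28-KO over WT. Of these calls, that of ATG3 was kept under all 15 alternative settings. LAMP1, the single rise, kept its call in 7 of the 15 and had a value of -0.11 with the median of its neighbours removed, where the call of CTSA was lost too (-0.13), and MCOLN1 kept its call in 8 of the 15. Whether the 5 genes share a direction is therefore not settled by these values. Among the wider lists of autophagy and lysosome genes described further on, 10 genes had TCACGTGA in a promoter, 9 of which were tested, with 4 called higher, 1 lower and 4 not called. The 4 rises were small (0.21 to 0.26), and on a TPM scale the median of all tested genes moved to -0.17. Of all tested genes, 25.1% were called higher and 25.2% lower. With so few genes, no direction can be read from either group. A match of letters is a description of the promoter and does not show that a factor was bound in these cells.

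The ULK complex starts autophagosome formation, and its 2 kinase genes moved apart. ULK1 had 10.6 and 11.1 FPKM in TTC28-KO libraries, against 8.51 and 8.93 FPKM in WT libraries (log2 fold change 0.32, SE 0.0660, adjusted p = 0.0013, edgeR's quasi-likelihood test, Benjamini-Hochberg adjusted). Both TTC28-KO libraries lay above both WT libraries, though on a TPM scale the rise was 0.15 and not called.

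ULK2 (ENSG00000083290, hg38 chromosome 17, 19770829 to 19867936) was nearly absent from TTC28-KO cells. It had 0.0547 and 0.0624 FPKM in TTC28-KO libraries (15 and 15 counts), against 0.834 and 0.761 FPKM in WT libraries (215 and 204 counts). The groups were far apart, but the gene stayed below 1 FPKM in every library and so was outside the main test. Scaled summed counts were 13.6-fold lower in TTC28-KO cells (95% exact interval 9.41 to 20.5, counting error only). In a fit without the filter, over 30992 genes of which 25.7% were called, ULK2 had a log2 fold change of -3.77 (SE 0.237, adjusted p = 1.28e-54, edgeR's quasi-likelihood test, Benjamini-Hochberg adjusted). Adjusted p-values of that fit cannot be set beside those of the main test. For MITF, at 2.52 and 2.54, edgeR gave 9.18e-34 without the filter and 3.87e-07 in the main test. The authors' deposited table gave -3.78 for ULK2 (adjusted p = 4.6e-22 there). As ULK1 was the more abundant kinase gene in all libraries, the summed FPKM of ULK1 and ULK2 was 10.6 and 11.2 in TTC28-KO libraries and 9.34 and 9.69 in WT libraries.

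ATG13, the subunit that links the ULK kinase to its scaffold, rose by 0.28 on the log2 scale (SE 0.0690, adjusted p = 0.00416 in edgeR). It had 18.1 and 18.4 FPKM in TTC28-KO libraries and 14.1 and 16.0 FPKM in WT libraries. The ATG13 call was lost on a TPM scale (0.11), with the median of neighbouring genes removed (0.15) and without WT replicate 1 (0.19). RB1CC1 (FIP200), the scaffold, was not called (-0.04 ± 0.0637), and its libraries overlapped.

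**Figure D2:**
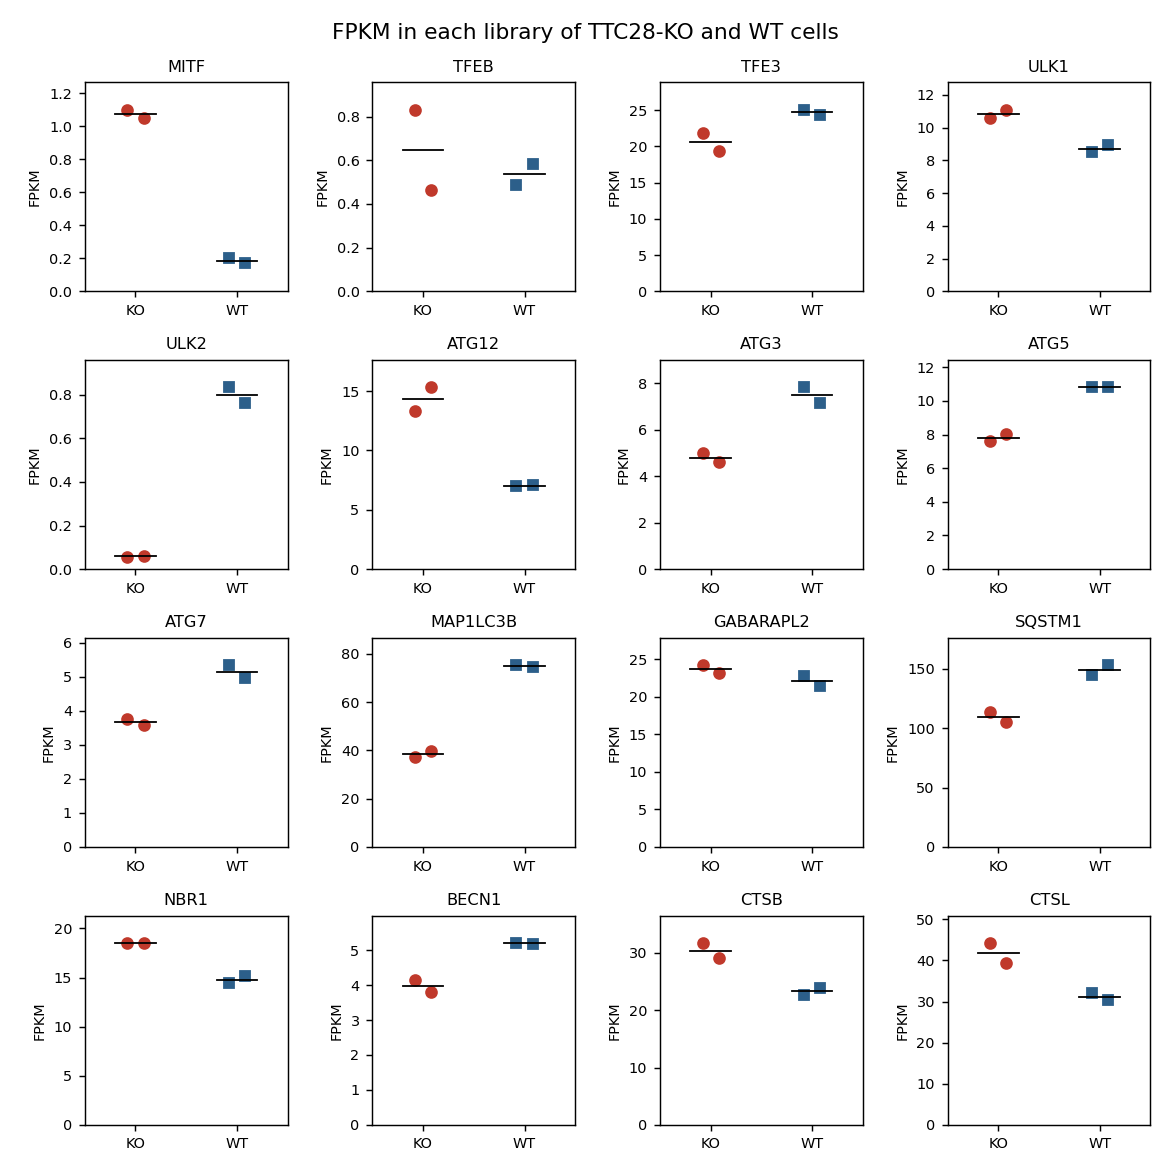
FPKM in each library for 16 genes of the list, with TTC28-KO (red circles) left of WT (blue squares) in each panel, a black line for the mean of 2 libraries, and a vertical axis from 0 that differs between panels. TFEB overlaps between genotypes, whereas the libraries of the other 15 genes do not, and ULK2 lies near 0 in both TTC28-KO libraries.

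Of the subunits of the class III phosphatidylinositol 3-kinase complexes, which mark the growing phagophore with lipid, BECN1 (Beclin 1) fell by 0.38 on the log2 scale (SE 0.0838, adjusted p = 0.00205 in edgeR). BECN1 had 4.16 and 3.80 FPKM in TTC28-KO libraries, against 5.20 and 5.19 FPKM in WT libraries. Genes on the opposite strand, chiefly CNTD1 (17 and 10 counts in TTC28-KO libraries, 17 and 17 in WT libraries), overlap 17.1% of its exonic bases. ATG14 (0.04 ± 0.0850), which directs the complex to autophagosome formation, and UVRAG (-0.10 ± 0.0839), which belongs to the complex of the endosome, were not called. Among other proteins of the growing phagophore, ATG9A, a lipid scramblase of small vesicles, rose by 0.41 (SE 0.0991, adjusted p = 0.00351 in edgeR). It had 9.17 and 8.60 FPKM in TTC28-KO libraries and 5.95 and 7.42 FPKM in WT libraries. The WT libraries of ATG9A differed from each other more than its TTC28-KO libraries did, and without WT replicate 1 the rise was 0.26 and not called (adjusted p = 0.0703 in edgeR). An annotated gene on the same strand shares 38.8% of the exonic bases of ATG9A and held 0 to 5 counts per library. Reads that fit both genes could have been split or dropped in the authors' counting, so the level of ATG9A is uncertain. ATG2A (0.13 ± 0.0734), a lipid transfer protein, and the lipid-binding WIPI1 (0.14 ± 0.0929) and WIPI2 (0.02 ± 0.0606) were not called.

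The conjugation genes had the most calls of any role by number, in both directions. These were 5 of 6 tested genes (83.3%), beside 50.3% of all tested genes, and the call of ATG4B among them was marginal. ATG12 is a ubiquitin-like protein that becomes attached to ATG5, and with ATG16L1 the pair guides the lipidation of ATG8 proteins. ATG12 (hg38 chromosome 5, 115828200 to 115841858) had 13.3 and 15.3 FPKM in TTC28-KO libraries, against 7.02 and 7.06 FPKM in WT libraries. The WT libraries were close to each other and both TTC28-KO libraries were well above them, with a log2 fold change of 1.02 (SE 0.0748, 2.03-fold, adjusted p = 2.68e-07, edgeR's quasi-likelihood test, Benjamini-Hochberg adjusted). ATG5 went the other way. It had 7.63 and 8.01 FPKM in TTC28-KO libraries and 10.8 and 10.8 FPKM in WT libraries (log2 fold change -0.46, SE 0.0713, adjusted p = 0.000138 in edgeR). The ratio of ATG12 to ATG5 FPKM was 1.74 and 1.91 in TTC28-KO libraries and 0.648 and 0.655 in WT libraries. FPKM divides by the annotated gene length, 8888 bases for ATG12 and 5655 for ATG5. In raw counts the WT libraries held 1635 and 1709 for ATG12, beside 1605 and 1659 for ATG5. Which of these partners was the more abundant transcript in WT cells therefore depends on the length used, whereas the ratio rose in TTC28-KO cells. ATG16L1, the third component, was not called (0.13 ± 0.0813).

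ATG7 activates both ATG12 and the ATG8 proteins, and ATG3 passes ATG8 proteins on to lipid. ATG3 had 5.00 and 4.60 FPKM in TTC28-KO libraries, against 7.82 and 7.17 FPKM in WT libraries, and fell by 0.64 on the log2 scale (SE 0.0850, adjusted p = 4.19e-05 in edgeR). ATG7 had 3.76 and 3.60 FPKM in TTC28-KO libraries and 5.34 and 4.97 FPKM in WT libraries, and fell by 0.48 (SE 0.0807, adjusted p = 0.000263 in edgeR). VGLL4 on the opposite strand overlaps 18.1% of the exonic bases of ATG7, and held 985 and 800 counts in TTC28-KO libraries and 759 and 807 in WT libraries, beside 926 and 776 for ATG7 in TTC28-KO libraries and 1236 and 1195 in WT libraries. With the strand setting unknown, reads from the shared bases could belong to either gene. Summed with ATG5, the 3 transcripts that fell gave 16.4 and 16.2 FPKM in TTC28-KO libraries and 24.0 and 22.9 FPKM in WT libraries. ATG4B, the protease that trims ATG8 proteins and releases them from lipid, had 14.9 and 13.2 FPKM in TTC28-KO libraries and 12.5 and 12.4 FPKM in WT libraries. Its call as higher was marginal (0.18 ± 0.0690, adjusted p = 0.0472 in edgeR) and held in 3 of the 15 alternative settings only; without TTC28-KO replicate 1 the value was 0.09, without WT replicate 1 it was 0.18 and without WT replicate 2 it was 0.16, none of them called.

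MAP1LC3B (LC3B), the ATG8 protein most used as a marker of autophagosomes, had the largest fall among the tested genes of the list. It had 37.3 and 39.8 FPKM in TTC28-KO libraries (5520 and 5170 counts), against 75.3 and 74.5 FPKM in WT libraries (10476 and 10776 counts). The libraries of each genotype were close and the genotypes far apart, at a log2 fold change of -0.95 (SE 0.0641, 1.94-fold lower, adjusted p = 1.21e-07, edgeR's quasi-likelihood test, Benjamini-Hochberg adjusted). The tested neighbours of MAP1LC3B on chromosome 16 (25 on each side) had a median difference of -0.25, and with it removed the fall was 0.70 and still called. A near copy, MAP1LC3B2, shares 233 distinct words of 75 bases with MAP1LC3B transcripts (4.18% of those of MAP1LC3B and 13.4% of its own), so reads between the copies are uncertain. MAP1LC3B2 had 3.72 and 4.19 FPKM in TTC28-KO libraries, against 7.04 and 6.82 FPKM in WT libraries, and was called lower too (-0.81, SE 0.127, adjusted p = 0.000165 in edgeR).

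The calls of the remaining ATG8 genes differed. GABARAPL2 (GATE-16) had 24.2 and 23.2 FPKM in TTC28-KO libraries and 22.8 and 21.4 FPKM in WT libraries, and was not called (0.11 ± 0.0677), with a value of -0.06 on a TPM scale and of 0.36, called, once the median of its neighbours (-0.25) was removed. GABARAP had 0.348 and 0.578 FPKM in TTC28-KO libraries and 0.472 and 0.502 FPKM in WT libraries. It was below the filter, its libraries overlapped, and the ratio of summed counts was 0.937 (95% exact interval 0.636 to 1.38). A gene on the same strand shares 30.5% of the exonic bases of GABARAP and held 0 counts in every library. Genes on the opposite strand overlap 25.2% of the exonic bases of GABARAP. The authors' counting could have split or dropped reads that fit more than a single gene, so the level of GABARAP is uncertain. From the wider list, MAP1LC3A had 22.5 and 19.3 FPKM in TTC28-KO libraries and 15.3 and 15.4 FPKM in WT libraries (log2 fold change 0.45, SE 0.0899, adjusted p = 0.00102 in edgeR). GABARAPL1 had 19.1 and 17.9 FPKM in TTC28-KO libraries and 20.7 and 21.3 FPKM in WT libraries (-0.18, SE 0.0640, adjusted p = 0.032 in edgeR).

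Summed over 7 genes, the ATG8 family had 107 and 105 FPKM in TTC28-KO libraries, against 142 and 140 FPKM in WT libraries. MAP1LC3B made up 34.7% and 37.8% of that sum in TTC28-KO libraries and 53.1% and 53.3% in WT libraries, while GABARAPL1 and GABARAPL2 together had 43.4 and 41.1 FPKM in TTC28-KO libraries beside 43.5 and 42.6 FPKM in WT libraries. By these FPKM values MAP1LC3B was the most abundant ATG8 transcript in all 4 libraries. The sum, the shares and this order all rest on the uncertain level of GABARAP.

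**Figure D3:**
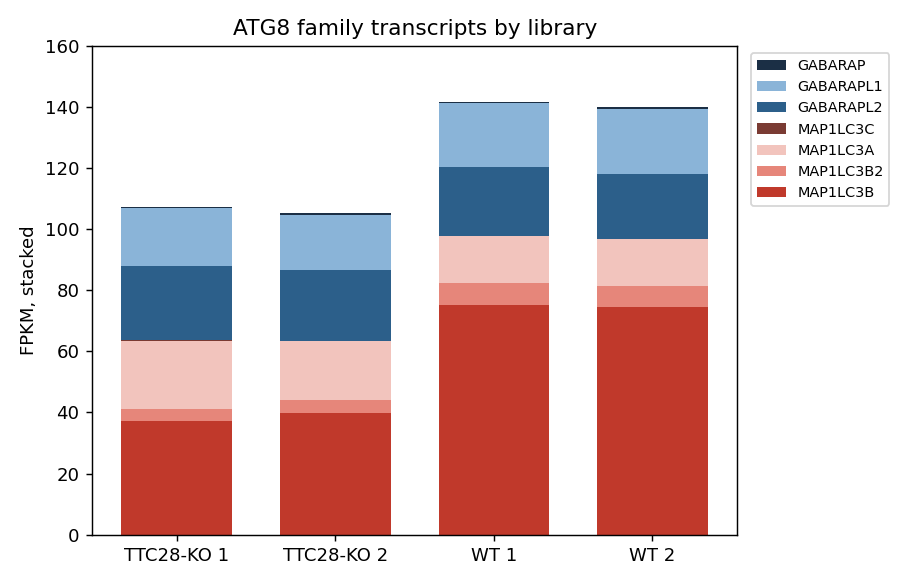
Stacked FPKM of the 7 ATG8 family genes in each library, TTC28-KO left of WT, with MAP1LC3 genes in red shades and GABARAP genes in blue shades. The bars reach 107 and 105 FPKM in TTC28-KO libraries and 142 and 140 FPKM in WT libraries, and the dark red MAP1LC3B segment is the one that differs most.

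The cargo receptors, which bind ubiquitin on cargo and ATG8 proteins on the membrane, were split. SQSTM1 was the most abundant transcript of the list, with 114 and 105 FPKM in TTC28-KO libraries, against 145 and 153 FPKM in WT libraries. Both TTC28-KO libraries were below both WT libraries, and SQSTM1 fell by 0.44 on the log2 scale (SE 0.0705, adjusted p = 0.000185 in edgeR). Genes on the opposite strand, chiefly MRNIP, overlap 22.0% of the exonic bases of SQSTM1. MRNIP held 1534 and 1363 counts in TTC28-KO libraries and 1298 and 1243 in WT libraries, whereas SQSTM1 held 24412 and 19554 counts in TTC28-KO libraries and 29046 and 31961 in WT libraries. NBR1, a receptor of related domain structure, rose by 0.33 (SE 0.0608, adjusted p = 0.000626 in edgeR), and on a TPM scale by 0.16, which was not called. NBR1 had 18.5 and 18.5 FPKM in TTC28-KO libraries and 14.4 and 15.2 FPKM in WT libraries. The ratio of SQSTM1 to NBR1 FPKM was 6.20 and 5.65 in TTC28-KO libraries and 10.1 and 10.1 in WT libraries. OPTN (optineurin), a receptor for damaged mitochondria and bacteria, was not called (0.04 ± 0.0622).

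Lysosomal membrane genes of the list differed little. LAMP1, a heavily glycosylated protein that lines the lysosomal membrane, had 33.5 and 35.4 FPKM in TTC28-KO libraries and 29.2 and 31.1 FPKM in WT libraries, and was called higher (0.19 ± 0.0633, adjusted p = 0.0208 in edgeR). The median of its neighbours on chromosome 13 was itself 0.31 higher in TTC28-KO cells, and with it removed the LAMP1 value was -0.11 and not called; it was also not called on a TPM scale (0.03), without TTC28-KO replicate 2 (0.15), without WT replicate 1 (0.15) or without WT replicate 2 (0.23). LAMP2, its relative with a part in autophagosome fusion and chaperone-mediated autophagy, was not called (0.15 ± 0.0654). MCOLN1, the lysosomal calcium channel, had 5.26 and 5.70 FPKM in TTC28-KO libraries and 6.82 and 6.13 FPKM in WT libraries, and was called lower by a narrow margin (-0.24 ± 0.0938, adjusted p = 0.0485 in edgeR). The MCOLN1 call was lost in 7 of the 15 alternative settings, among them without TTC28-KO replicate 1 (-0.17), without WT replicate 1 (-0.16) and without WT replicate 2 (-0.32). Of the proton pump that acidifies lysosomes, ATP6V1H, a subunit of its cytosolic part, rose by 0.31 (SE 0.0631, adjusted p = 0.00126 in edgeR; 0.14 and not called on a TPM scale), and ATP6V0D1, of its membrane part, was not called (-0.12 ± 0.0768).

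Among the 6 lysosomal hydrolases, the cysteine proteases cathepsin L and cathepsin B rose. CTSL had 44.2 and 39.3 FPKM in TTC28-KO libraries, against 32.0 and 30.3 FPKM in WT libraries (log2 fold change 0.43, SE 0.0712, adjusted p = 0.000267 in edgeR). CTSB had 31.7 and 29.1 FPKM in TTC28-KO libraries, against 22.7 and 23.9 FPKM in WT libraries (0.39, SE 0.0642, adjusted p = 0.000253 in edgeR). For both genes each TTC28-KO library lay above each WT library. CTSA, a carboxypeptidase that also protects other lysosomal enzymes, had 25.8 and 25.7 FPKM in TTC28-KO libraries and 30.7 and 30.6 FPKM in WT libraries, and fell by 0.25 (SE 0.0592, adjusted p = 0.0033 in edgeR). Genes on the opposite strand, chiefly NEURL2 (35 and 28 counts in TTC28-KO libraries, 22 and 32 in WT libraries), overlap 28.5% of the exonic bases of CTSA. With the median of its neighbours removed, the CTSA value was -0.13 and not called. CTSD, the aspartic protease cathepsin D, was not called (0.01 ± 0.0719), nor were GLA (-0.05 ± 0.0903), which encodes alpha-galactosidase A, and HEXA (-0.01 ± 0.0835), which encodes a subunit of beta-hexosaminidase. A gene on the same strand shares 41.7% of the exonic bases of CTSD and held 0 to 3 counts per library. Genes on the opposite strand overlap 15.8% of the exonic bases of CTSD. Reads that fit more than a single gene could have been split or dropped, so the level of CTSD is uncertain. Together the 6 hydrolase genes had 138 and 128 FPKM in TTC28-KO libraries and 121 and 119 FPKM in WT libraries.

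To set these genes in their pathways, 6 further lists of 164 genes in all were counted, of which 149 were tested. Of the 149, 53 were called higher and 36 lower in TTC28-KO cells, with a median log2 fold change of 0.09. These are 35.6% higher and 24.2% lower, beside 25.1% and 25.2% of all tested genes. On a TPM scale, where 14.7% of all tested genes were called higher and 40.6% lower, the lists had 31 higher (20.8%) and 54 lower (36.2%), so their counts moved with those of all genes.

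Other lysosomal hydrolases and cofactors had the highest share of rises, 21 higher and 6 lower of 43 tested. CTSC, the dipeptidyl peptidase cathepsin C, had 8.40 and 8.44 FPKM in TTC28-KO libraries and 5.08 and 4.78 FPKM in WT libraries (log2 fold change 0.78, SE 0.0657, adjusted p = 9.45e-07 in edgeR). LIPA, the lysosomal acid lipase, rose by 0.78 (SE 0.0685). GUSB (beta-glucuronidase) fell by 0.44 (SE 0.0644). With the 6 of the main list, 23 hydrolases and cofactors were called higher (46.9%) and 7 lower (14.3%) of 49, beside 25.1% and 25.2% of all tested genes. On a TPM scale 14 were higher (28.6%) and 14 lower (28.6%), beside 14.7% and 40.6% of all tested genes. Of the cathepsins, 8 of 11 tested were called higher and 1, CTSA, lower, and on a TPM scale 7 were higher and 1 lower. Besides CTSB, CTSL and CTSC these were CTSF (0.40 ± 0.0749), CTSH (0.59 ± 0.133), CTSK (1.13 ± 0.222), CTSO (0.47 ± 0.145) and CTSV (0.55 ± 0.132), as log2 fold changes ± SE. The cathepsins were grouped after their values were seen.

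Of 18 other lysosomal membrane proteins, 8 were called higher (44.4%) and 3 lower (16.7%), beside 25.1% and 25.2% of all tested genes. On a TPM scale 5 were higher (27.8%) and 5 lower (27.8%), beside 14.7% and 40.6% of all tested genes. SLC17A5, the sialic acid exporter sialin, rose by 0.66 (SE 0.0729), and SCARB2 (LIMP-2), a lysosomal membrane glycoprotein, by 0.55 (SE 0.0634). CTNS, the cystine exporter, fell by 0.34 (SE 0.0881), a call lost with the median of its neighbours removed (-0.03). Of 16 other proton pump subunits, 4 were called higher and 5 lower. ATP6V0A1 rose by 0.76 (SE 0.0735), while ATP6V0B fell by 0.49 (SE 0.0703) and ATP6V1E2 by 0.71 (SE 0.123). On a TPM scale 1 pump subunit was called higher (6.25%) and 6 lower (37.5%), the share of lower calls being near the 40.6% of all tested genes on that scale.

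Of 26 other genes of the autophagy machinery, 8 were called higher (30.8%) and 6 lower (23.1%), near the 25.1% and 25.2% of all tested genes. The lipid kinase PIK3C3 (VPS34) rose by 0.49 (SE 0.0675) and its regulatory subunit PIK3R4 (VPS15) by 0.80 (SE 0.0708), in contrast to BECN1 of the same complex. RUBCN (Rubicon), an inhibitor of that complex, rose by 0.42 (SE 0.0637). YKT6, a SNARE of autophagosome fusion, fell by 0.64 (SE 0.0721). Of 18 other cargo receptors and adaptors, 7 were called higher (38.9%) and 4 lower (22.2%), beside the same shares of all tested genes. On a TPM scale 4 of these 18 were higher (22.2%) and 7 lower (38.9%), beside 14.7% and 40.6% of all tested genes. CALCOCO1, a receptor for endoplasmic reticulum and Golgi, rose by 0.95 (SE 0.0623) and RTN3, a receptor for tubular endoplasmic reticulum, by 0.63 (SE 0.0620), while TAX1BP1 fell by 0.62 (SE 0.0653) and CALCOCO2 (NDP52) by 0.33 (SE 0.0610), the call of CALCOCO2 being lost with the median of its neighbours removed (-0.06).

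Of 28 genes of mTORC1 and its amino acid sensing arm, 5 were called higher (17.9%) and 12 lower (42.9%), beside 25.1% and 25.2% of all tested genes. On a TPM scale 2 were higher (7.14%) and 16 lower (57.1%), beside 14.7% and 40.6% of all tested genes. LAMTOR5, of the complex that anchors Rag GTPases on the lysosome, had 7.38 and 5.74 FPKM in TTC28-KO libraries and 16.0 and 15.1 FPKM in WT libraries (log2 fold change -1.24, SE 0.108, adjusted p = 1.18e-06 in edgeR). SESN2, a leucine-sensing inhibitor of the pathway, had 31.1 and 32.2 FPKM in TTC28-KO libraries and 61.8 and 64.6 FPKM in WT libraries (1.99-fold lower, adjusted p = 6.92e-08 in edgeR). ITFG2, of the KICSTOR complex, fell by 0.93 (SE 0.0890). Genes on the opposite strand overlap 18.7% of the exonic bases of ITFG2, chiefly FOXM1, and 17.5% of those of LAMTOR5. With the strand setting unknown, reads from the shared bases could belong to either gene. LAMTOR3, of the same anchoring complex as LAMTOR5, rose by 0.48 (SE 0.0849) and TSC1, an inhibitor of the pathway, by 0.43 (SE 0.0686).

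**Figure D4:**
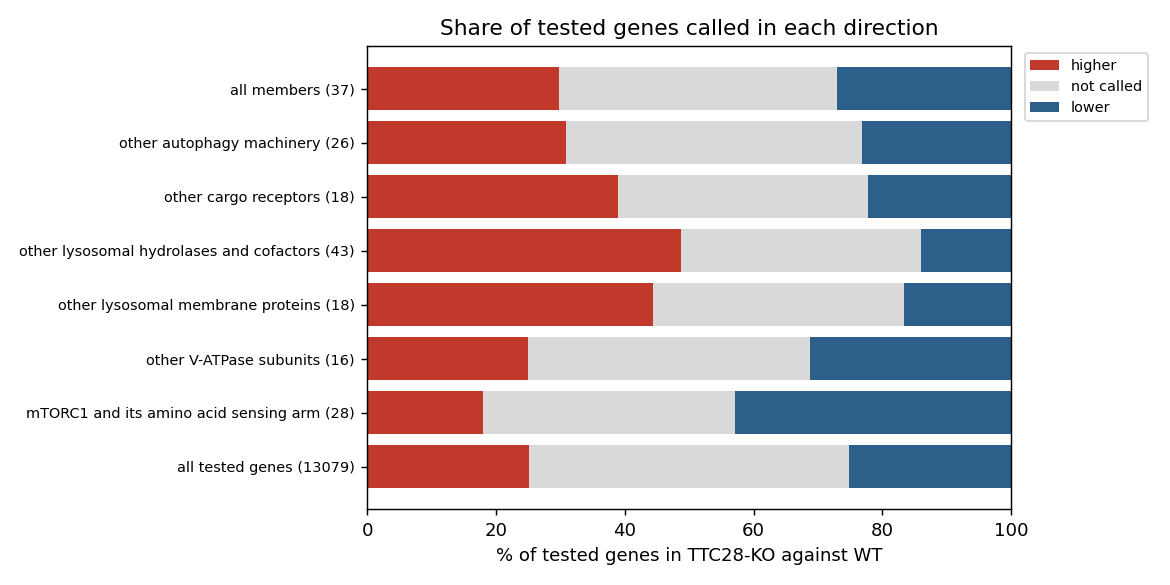
Percent of tested genes called higher (red), not called (grey) and called lower (blue) in TTC28-KO against WT for the genes of the list, 6 further lists and all tested genes, with the number tested in brackets. Of the 37 tested genes 29.7% were higher and 27.0% lower, beside 25.1% and 25.2% of all tested genes; other hydrolases stand at 48.8% higher and 14.0% lower on the scale used here.

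**Figure D5:**
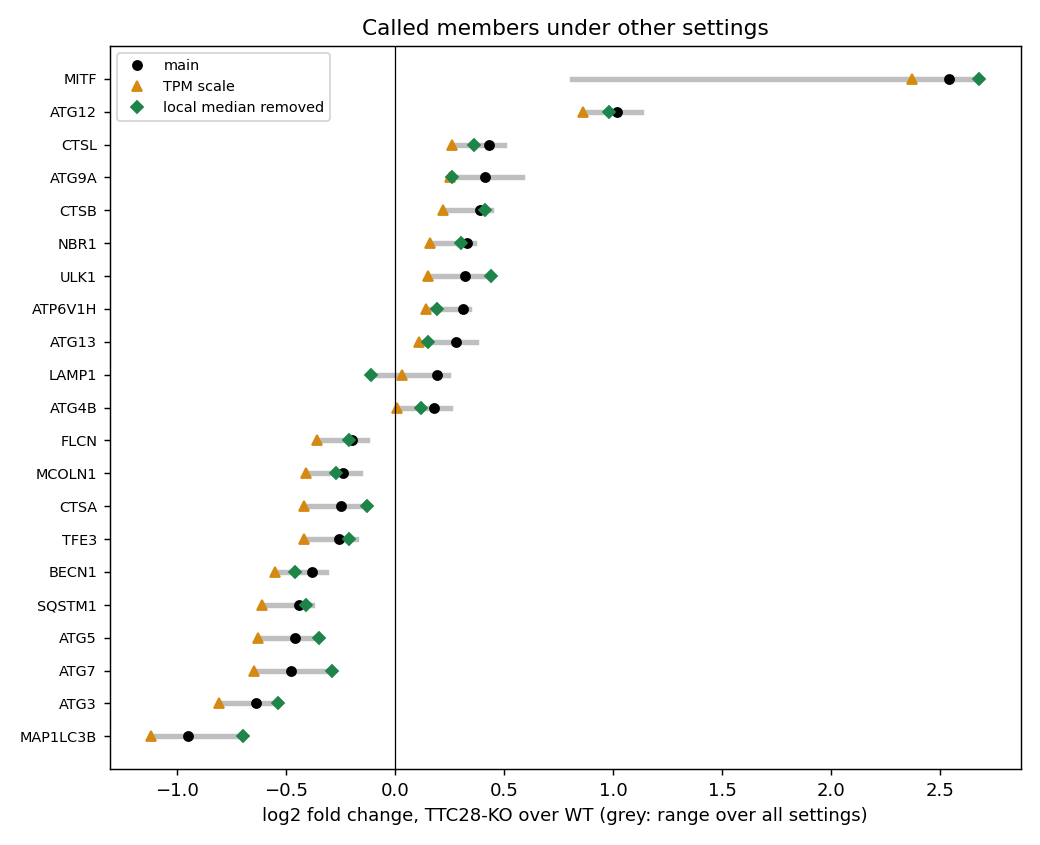
Log2 fold change of TTC28-KO over WT for the 21 called genes of the list, with the main value (black), the value on a TPM scale (orange), the value with the median of neighbouring genes removed (green) and the range over all 15 alternative settings and the main one (grey bars). Only LAMP1 crosses 0, at -0.11; the low end for MITF (0.81) comes from limma on log2(FPKM + 1).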

How the data were processed

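TruSeq libraries of total RNA from H1299 cells were sequenced, per the labels' protocols. The submitters' processing notes name HISAT2 2.0.5 and hg38. Which tool counted the reads, with which strand setting and annotation, was not given in the sources used here. The authors deposited a single table with a raw count per gene and library, FPKM values, a gene length, group means of scaled counts (a signal, not used), and their own log2 fold change with p-value and adjusted p-value, per the file headers.

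The 13079 genes that reached 1 FPKM in 2 or more libraries were tested on raw counts with edgeR 4.0.16 in R 4.3.3, by the quasi-likelihood test with TMM factors (0.977 to 1.02), TTC28-KO (n = 2) against WT (n = 2), two-sided, with p-values adjusted by Benjamini-Hochberg over all tested genes and a threshold of 0.05. With 2 libraries a genotype, the smallest exact permutation p is 0.333. The median SE of a log2 fold change was 0.0886. Ratios of summed counts have exact Clopper-Pearson intervals (95%, counting error only). The alternatives were lower filters, filterByExpr, median-of-ratios factors, total counts, a TPM scale, DESeq2 1.42.0, limma 3.58.1 on log2(FPKM + 1) and log2(FPKM + 0.1), removal of the median of 25 neighbouring genes on each side, a replicate block, and leaving out each library. The edgeR, limma, DESeq2, block and neighbour fits were checked on simulated data.

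All 41 genes were named; values per library were given for the MITF/TFE factors, for called genes of at least 0.5 in size and for relatives of called genes, with others added, and from each further list up to 3 called genes per direction, by smallest p, not all of them printed. The genes and lists were chosen with earlier results of these data known. Gene positions and exon overlaps come from GENCODE release 29, whose coordinates were identical for all 206 genes compared. Promoters are from RefSeq; none was used for RB1CC1, CTSB, ATP6V1H, LAMP2, HEXA, RRAGD and UVRAG. Protein sequences were not used here. A few genes of the further lists and markers are not reported here.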

Additional observations from a re-analysis of the deposited data

How the results depend on the processing

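Over the 15 alternatives, the log2 fold changes of the 37 tested genes kept their direction and their side of the threshold in 475 of 555 cases, lost a call in 41, gained one in 11 and turned their direction in 28. The members called higher were 5 on a TPM scale, and the wider list genes called higher 31. Leaving out each library gave 4854 to 6456 called genes, 7 to 11 members higher (7 without WT replicate 1), 7 to 9 lower, and 41 to 52 wider genes higher and 26 to 34 lower. The median of the tested members was -0.14 on a TPM scale. Turned directions, all but LAMP1 of genes not called, were on a TPM scale ATG14 (-0.12), ATG2A (-0.04), WIPI1 (-0.02), WIPI2 (-0.14), ATG16L1 (-0.04), GABARAPL2 (-0.06), OPTN (-0.13), LAMP2 (-0.02) and CTSD (-0.15); with total counts ATG14 (-0.02), WIPI2 (-0.04), OPTN (-0.02) and CTSD (-0.05); with the neighbours' median removed RRAGC (0.01), RRAGD (0.02), LAMP1 (-0.11), ATP6V0D1 (0.18), CTSD (-0.02) and HEXA (0.07). Leaving out a library turned, with lowest and highest values, RRAGC (-0.15 to 0.04), RB1CC1 (-0.10 to 0.02), ATG14 (-0.03 to 0.12), WIPI2 (-0.01 to 0.05), CTSD (-0.07 to 0.09), GLA (-0.12 to 0.02) and HEXA (-0.07 to 0.04). Scaling is the construction behind the TPM and total-count shifts; the cause of the others was not tested. With the replicate number as a block, 7108 genes were called, 12 members higher and 10 lower, but same-numbered libraries did not deviate together (correlation -0.0250 across genes), so the samples share only a number. TFEB, TFEC and GABARAP had few counts, which allow no statement on small differences. For TFEB, the TTC28-KO libraries also differed from each other (0.832 and 0.464 FPKM).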
